A study of Homo sapiens with 6 samples.

Results

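RWDD1, RCSD1, SERTAD4, MXRA5 and PXYLP1 were 5 genes whose RNA was over 2.5-fold lower in ONS-76 cells after siRNA against KDM1A than in mock cells, on at least 1 probe set. They were chosen by their log2 values in this comparison on these same 6 arrays, so their differences between the groups are described here and carry no test. Every probe set that the platform annotation assigned to 1 of these genes alone was taken, which gave 11 of 54613 probe sets and 5 of 19775 genes. RWDD1, RCSD1 and PXYLP1 had 2 probe sets each, SERTAD4 had 4 and MXRA5 had 1.

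The human line ONS-76 was established from a medulloblastoma, a tumour of the cerebellum, and total RNA of its cells was measured on Affymetrix U133 Plus 2.0 arrays. The siKDM1A group held 3 arrays, a, b and c, of cells transfected with 1 siRNA. The mock group held 3 arrays, a, b and c, of cells given the transfection reagent and no siRNA, so loss of the target and delivery of this siRNA cannot be told apart in any difference given here. The study describes independent transfections, and p-values measure the spread between these arrays only. The labels call the siRNA target KDM5A, write LSD1, another name of KDM1A, beside it, and give a harvest at 48 h, whereas the study's text names KDM1A and a later time. The values were log2 after RMA, a method that gives the arrays a common distribution of probe intensities and 1 value per probe set, so 1 unit is a doubling of signal. In bulk RNA of this kind, fewer cells that express a gene and less RNA per cell cannot be told apart.

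KDM1A is a lysine demethylase that removes methyl groups from histone H3 and acts in repressor complexes with HDAC and CoREST proteins. The 5 genes have separate known roles. RWDD1, also called DFRP2, carries an RWD domain and binds the translation-related GTPase DRG2. RCSD1, also called CapZIP, binds the capping protein that caps actin filaments and is phosphorylated by stress-activated kinases. SERTAD4 belongs to the SERTA domain family, whose better known members act on E2F-dependent transcription. MXRA5, also called adlican, is a secreted matrix protein with leucine-rich repeats and immunoglobulin domains. PXYLP1 is the phosphatase that removes the phosphate from xylose in the linker of glycosaminoglycan chains, a step of proteoglycan synthesis in the Golgi.

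The targeted gene was measured by 1 probe set. KDM1A had log2 values of 6.25, 6.34 and 6.31 in the siKDM1A arrays a, b and c, against 9.50, 9.57 and 9.49 in the mock arrays. The difference was -3.22 (9.33-fold lower, limma adjusted p = 7.1e-07). KDM5A, the gene the labels name, had 5 probe sets with differences from -0.39 to 0.06 and limma adjusted p from 0.056 to 0.87, so none passed the threshold of 0.05. On the 2 brightest of them every siKDM1A array lay below every mock array, with differences of -0.27 and -0.39. Array medians lay between 5.09 and 5.16, and no pair of arrays held identical values. Of the marker genes of medulloblastoma and the granule neuron lineage, 11 of 12 were measured, and ZIC1, ZIC2, BARHL1, SOX2, NES and MYCN lay above the median of all probe sets in mock cells while OTX2, EOMES and LMX1A lay below the lower quartile. ZIC1, ZIC2 and SOX2 were lower after siKDM1A at differences of -0.39, -0.40 and -0.43 (limma adjusted p = 0.026, 0.042 and 0.048). The rest of the lineage list did not pass and differed in both directions, from -0.14 for EOMES to 0.17 for BARHL1. The summed linear level of the lineage list was 1706 to 1980 in the siKDM1A arrays and 2258 to 2426 in the mock arrays. The mesenchymal list summed to 7694 to 8296 in the siKDM1A arrays and 8627 to 8817 in the mock arrays, with COL3A1 of its 6 genes called higher and none lower. Both sums rest mostly on the brightest gene, SOX2 (mock mean 10.66) in the lineage list and VIM (mock mean 13.03) in the mesenchymal list. VIM differed by -0.13 (limma adjusted p = 0.44), and the rest of the mesenchymal list by 0.03 to 2.13. The endothelial list summed to 360 to 403 in the siKDM1A arrays and 362 to 406 in the mock arrays, with PECAM1 called higher. The lymphocyte list summed to 164 to 189 in the siKDM1A arrays and 160 to 165 in the mock arrays, with none of 5 measured genes called. The part of these shifts in the falls of the 5 genes was not tested.

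The windows around the start sites of SERTAD4, of its antisense neighbour SERTAD4-AS1, of RWDD1 and of PXYLP1 are shown because the first pair lie on opposite strands of 1 locus and were both lower, while the other windows hold GC boxes close to the start. They run from 250 bases before the start site to 50 after it, in the direction of the gene, from RefSeq on GRCh38.p14. The SERTAD4 window is chr1:210232546-210232845 on the plus strand, and that of SERTAD4-AS1 is chr1:210233836-210234135 on the minus strand. The RWDD1 window is chr6:116571254-116571553 and the PXYLP1 window chr3:141231575-141231874, both on the plus strand. Capitals mark matches to the searched motifs on either strand.
SERTAD4: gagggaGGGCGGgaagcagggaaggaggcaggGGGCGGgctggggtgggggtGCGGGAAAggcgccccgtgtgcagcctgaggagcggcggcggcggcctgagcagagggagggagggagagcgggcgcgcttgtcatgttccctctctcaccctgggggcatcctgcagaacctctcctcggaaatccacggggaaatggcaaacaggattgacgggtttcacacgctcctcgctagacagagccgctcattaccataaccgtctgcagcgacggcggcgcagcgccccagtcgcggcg
SERTAD4-AS1: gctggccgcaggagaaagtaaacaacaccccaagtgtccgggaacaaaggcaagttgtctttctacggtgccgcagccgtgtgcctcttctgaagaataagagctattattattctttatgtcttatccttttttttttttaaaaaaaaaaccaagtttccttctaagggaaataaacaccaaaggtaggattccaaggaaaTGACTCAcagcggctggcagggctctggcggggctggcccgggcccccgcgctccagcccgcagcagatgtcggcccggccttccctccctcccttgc
RWDD1: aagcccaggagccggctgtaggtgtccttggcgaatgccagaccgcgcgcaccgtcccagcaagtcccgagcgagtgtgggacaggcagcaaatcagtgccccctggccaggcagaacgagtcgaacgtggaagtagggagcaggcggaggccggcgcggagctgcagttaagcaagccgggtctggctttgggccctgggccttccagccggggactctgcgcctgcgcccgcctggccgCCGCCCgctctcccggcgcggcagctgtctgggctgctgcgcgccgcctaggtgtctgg
PXYLP1: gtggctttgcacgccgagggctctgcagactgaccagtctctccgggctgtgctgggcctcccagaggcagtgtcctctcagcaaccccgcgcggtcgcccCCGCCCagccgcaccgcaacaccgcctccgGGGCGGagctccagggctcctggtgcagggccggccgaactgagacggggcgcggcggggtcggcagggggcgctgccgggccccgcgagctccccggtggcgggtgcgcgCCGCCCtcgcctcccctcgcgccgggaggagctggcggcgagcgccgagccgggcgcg
The motifs were the GC box GGGCGG, the CCAAT box CCAAT, the TATA box TATAAA, the E-box CAGGTG, the AP-1 site TGACTCA and the E2F sites TTTCCCGC and TTTGGCGC. The SERTAD4 window held GC boxes at positions -244 and -218 from the start site and an E2F match at -198. The PXYLP1 window held GC boxes at -149, -119 and -8, and that of RWDD1 held 1 at -9. The SERTAD4-AS1 window held an AP-1 match at -48. The RCSD1 and MXRA5 windows held none of the motifs, and a second SERTAD4 window, at chr1:210237036-210237335, held a CCAAT box at -47. Of 34796 distinct windows, 44.9% held the GC box, 34.6% the CCAAT box, 20.6% the E-box, 11.6% the TATA box, 4.96% the AP-1 site and 2.27% an E2F site, and no window of the 5 genes held the E-box, the TATA box or the AP-1 site. The first windows of all 5 genes were richer in G and C than the median window, with 65.3% in RCSD1, 68.3% in SERTAD4, 70.7% in RWDD1, 73.3% in MXRA5 and 78.7% in PXYLP1 against a median of 58.7%. Their CpG counts were 19, 27, 29, 29 and 40 against a median of 14. Among all windows they stood at percentiles from 67.8 (RCSD1) to 96.0 (PXYLP1) for G and C. For CpG the percentiles ran from 57.1 (RCSD1) to 92.4 (PXYLP1). The windows compared were not limited to genes expressed in these cells. The second SERTAD4 window was below both medians, with 52.7% and 5 CpG. These are properties of the sequence, and binding of a factor was not measured.

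PXYLP1 showed the largest of the 5 falls on its brighter probe set. 226925_at read 6.28, 6.02 and 6.23 in the siKDM1A arrays, against 7.72, 7.73 and 7.84 in the mock arrays. Its means were 6.18 ± 0.14 in siKDM1A cells and 7.76 ± 0.07 in mock cells (SD, n = 3 each), a log2 difference of -1.59, or 3.00-fold lower. The highest siKDM1A array lay 1.44 below the lowest mock array. The other PXYLP1 probe set, 239475_at, read 3.33, 3.40 and 3.20 in the siKDM1A arrays and 3.50, 3.55 and 3.23 in the mock arrays. Its groups overlapped, its difference was -0.12, and its mock mean of 3.43 lay below the lower quartile of all probe sets.

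RWDD1 had the brightest signal among the probe sets of the 5 genes, although brightness also depends on the probes and does not rank the genes. 219598_s_at read 8.73, 8.74 and 8.53 in the siKDM1A arrays, against 10.13, 10.25 and 10.17 in the mock arrays. The means were 8.66 ± 0.12 in siKDM1A cells and 10.18 ± 0.06 in mock cells (SD, n = 3 each), a difference of -1.52, or 2.87-fold lower. The mock mean stood at the 95.3 percentile of all probe sets, so this fall was read on a bright probe set. 240214_at read 4.40, 4.84 and 4.36 in the siKDM1A arrays and 5.47, 5.64 and 5.85 in the mock arrays. Both probe sets had every siKDM1A array below every mock array, and the dimmer one was lower by 1.12 on the log2 scale (2.17-fold).

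RCSD1 varied most within the groups when the brightest probe sets of the 5 genes were compared. 225763_at read 5.93, 5.56 and 6.04 in the siKDM1A arrays, against 7.18, 7.37 and 7.55 in the mock arrays. The means were 5.85 ± 0.25 in siKDM1A cells and 7.36 ± 0.19 in mock cells (SD, n = 3 each), a difference of -1.52, or 2.86-fold lower. All 3 siKDM1A arrays lay more than 1 log2 unit below the lowest mock array. 239328_at read 4.38, 4.00 and 4.89 in the siKDM1A arrays and 4.71, 4.68 and 4.58 in the mock arrays. Its groups overlapped, siKDM1A array c being above every mock array, and its difference was -0.23. The spread within groups of this probe set exceeded that of 97.5% of all probe sets, and the 2 RCSD1 probe sets therefore gave unlike readings of the same gene.

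SERTAD4 was read by 4 probe sets, and on each of them every siKDM1A array lay below every mock array. The brightest, 229674_at, read 6.39, 6.32 and 6.15 in the siKDM1A arrays, against 7.63, 7.71 and 7.66 in the mock arrays. Its means were 6.29 ± 0.12 in siKDM1A cells and 7.67 ± 0.04 in mock cells (SD, n = 3 each), a difference of -1.38, or 2.61-fold lower. The mock arrays were within 0.1 of each other here. 235337_at, the probe set with the largest SERTAD4 difference, read 4.73, 4.86 and 4.70 in the siKDM1A arrays and 6.15, 6.28 and 6.45 in the mock arrays, a difference of -1.53. 230660_at read 5.23, 5.69 and 5.55 in the siKDM1A arrays and 6.47, 6.61 and 6.82 in the mock arrays. 233907_s_at read 4.25, 3.93 and 4.19 in the siKDM1A arrays and 4.93, 5.49 and 5.38 in the mock arrays. Both of the last differed by -1.14, so the 4 estimates of the SERTAD4 fall ran from 2.21-fold to 2.88-fold.

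MXRA5 had a single probe set, 209596_at, so no second reading of its fall was at hand. It read 5.79, 5.53 and 5.77 in the siKDM1A arrays, against 7.22, 7.16 and 7.09 in the mock arrays. The means were 5.70 ± 0.14 in siKDM1A cells and 7.16 ± 0.07 in mock cells (SD, n = 3 each), a difference of -1.46, or 2.75-fold lower. The groups were separated by 1.30 on the log2 scale.

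**Figure D1:**
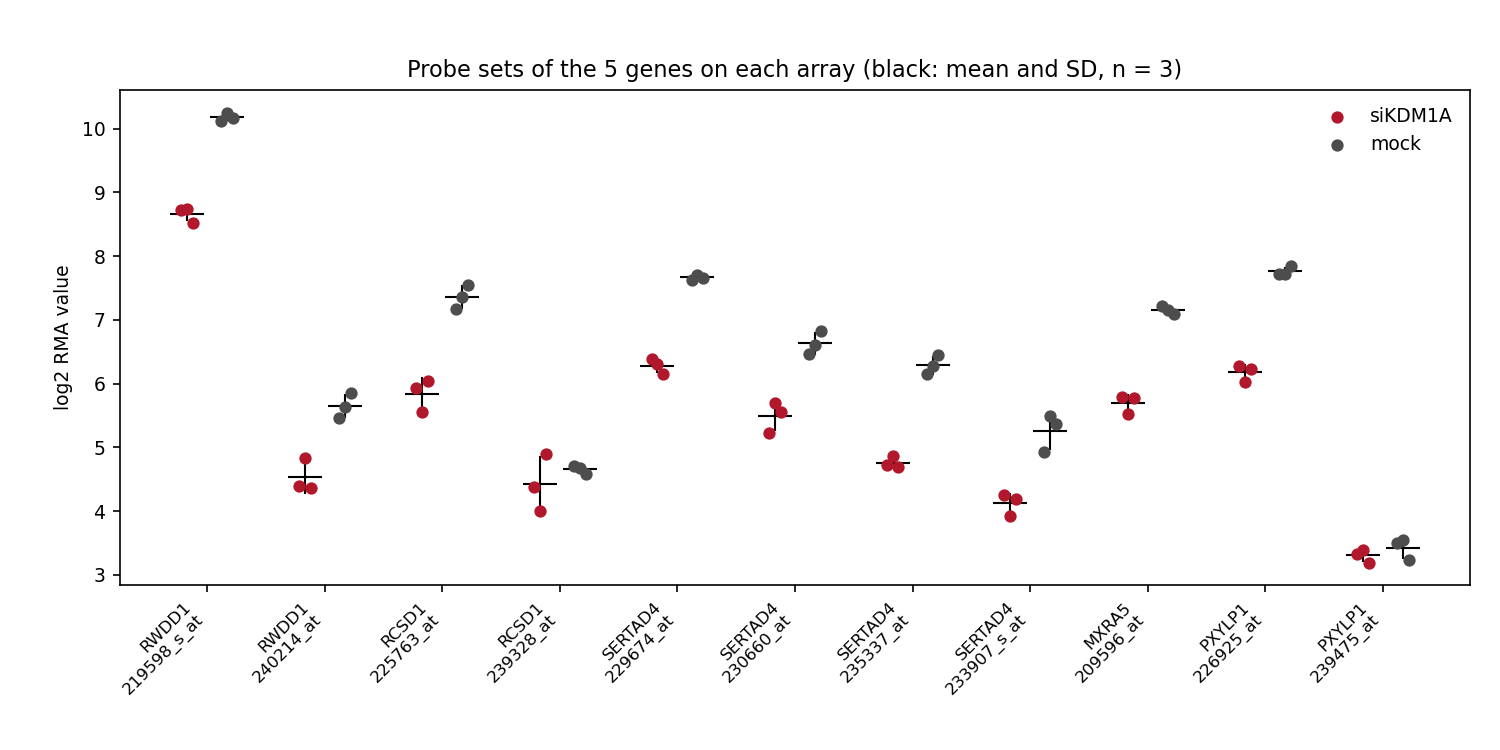
Log2 RMA value (vertical axis) of the 11 probe sets of the 5 genes on each of the 3 siKDM1A arrays (red, left of each pair) and 3 mock arrays (grey, right), with black bars for mean and SD. Red and grey points are apart for 9 probe sets and overlap for RCSD1 239328_at and PXYLP1 239475_at.

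Counted over all their probe sets, 9 of 11 had every siKDM1A array below every mock array, a separation that 13.4% of all probe sets showed, and 6 of 11 were past 2.5-fold. Over all probe sets limma called 2037 of 54613 lower, which is 3.73%. The genes were picked for this contrast, so nothing is read from these counts. Over the 5 brightest probe sets the differences ran from -1.59 to -1.38. In the order PXYLP1, RWDD1, RCSD1, MXRA5 and SERTAD4, neighbours differed by 0.067, 0.001, 0.057 and 0.079, each under the standard errors of the single differences, which ran from 0.092 to 0.142. Since the genes were sorted by these differences, small steps follow from the order itself. PXYLP1 and SERTAD4, at its ends, differed by 0.205. The siKDM1A array with the lowest value was b for RCSD1, MXRA5 and PXYLP1 and c for RWDD1 and SERTAD4, so no 1 array carried the fall. With 1 array left out at a time the differences ran from -1.64 to -1.51 for PXYLP1, from -1.56 to -1.45 for RWDD1, from -1.62 to -1.38 for RCSD1, from -1.51 to -1.38 for MXRA5 and from -1.43 to -1.31 for SERTAD4. SERTAD4 on its brightest probe set thus came to lie on either side of the 2.5-fold line, a log2 difference of 1.32 in size. The choice of probe set moved the values more. The mean over the probe sets of a gene gave -1.32 for RWDD1, -1.3 for SERTAD4, -0.88 for RCSD1 and -0.85 for PXYLP1. By this rule RWDD1 lay at the 2.5-fold line, and SERTAD4, RCSD1 and PXYLP1 fell short of it.

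Among all genes, 20 of 19775 (0.101%) were lower by over 2.5-fold on their most changed probe set, and 76 were higher by as much. Besides the 5 genes and KDM1A these were CXCR4, KRT4, E2F8, LIFR, IFITM1, KRT13, EPPK1, AATBC, RNF138, SLC24A1, SCARA3, VEZT, EDN2 and TP73. By size of the difference, PXYLP1 stood in place 7 and SERTAD4, RWDD1, RCSD1 and MXRA5 in places 9, 10, 11 and 12. Just inside the 2.5-fold line lay EDN2, which encodes endothelin 2, and the p53 family gene TP73, with differences of -1.35 and -1.34. Just outside it lay TOR1AIP2 and SMIM10L2A, with -1.27 and -1.24. RWDD1, RCSD1, SERTAD4 and PXYLP1 had more than 1 probe set, and for all 4 the brightest one was also past 2.5-fold, as it was for 7 of 9 such genes among the other 14.

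**Figure D2:**
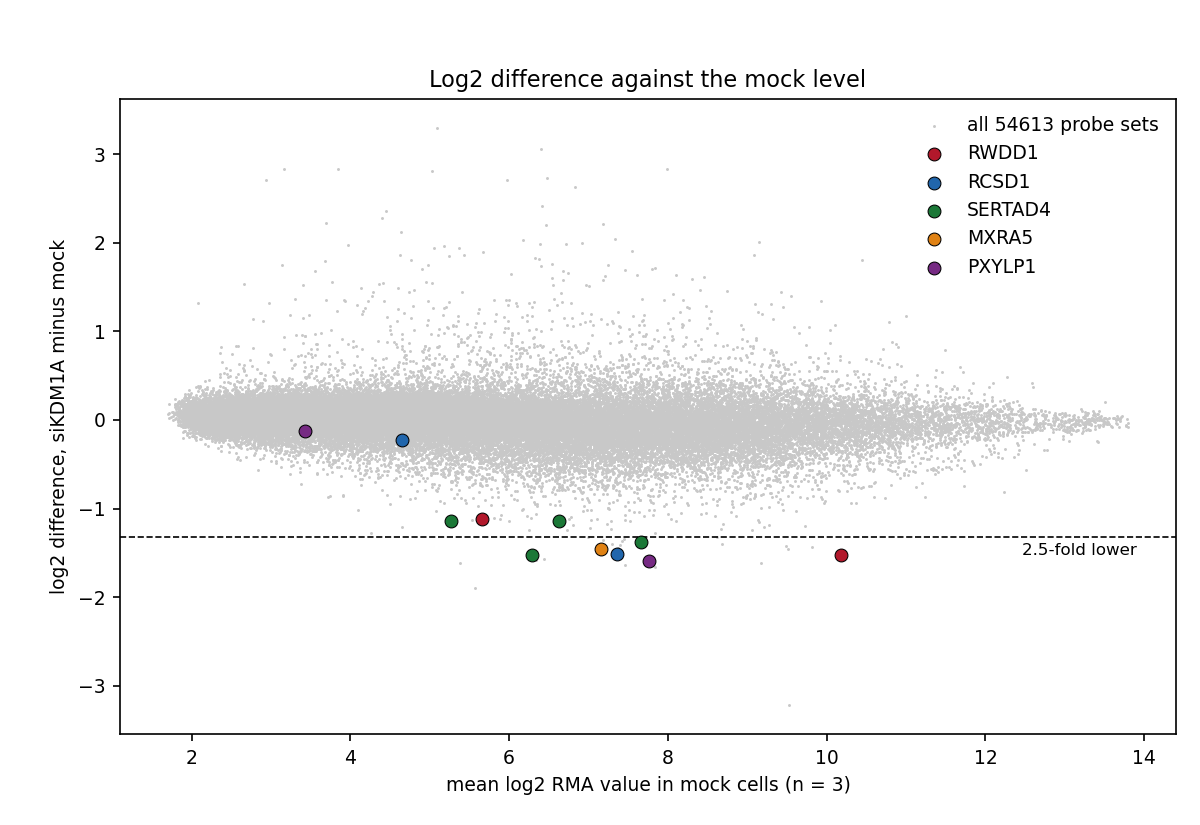
Log2 difference, siKDM1A minus mock (vertical axis), against the mean log2 RMA value in mock cells (horizontal axis, n = 3) for 54613 probe sets, with the 11 probe sets of the 5 genes in colour and a dashed line at 2.5-fold lower. Of the 11 coloured points 6 lie below the line, and the 2 nearest to 0 are PXYLP1 239475_at and RCSD1 239328_at.

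The genes whose 6 array values ran most like those of each of the 5 were sought over the brightest probe sets of 19775 genes, after the mean of the 6 values was taken off each. The measure was the root mean square distance in log2 units over 6 arrays. Since the arrays fall into 2 groups, likeness here mostly means a fall of like size, and no correlation is given. RWDD1 lay nearest to SERTAD4 (0.07), then to the keratin gene KRT13 (0.10) and the ubiquitin ligase gene RNF138 (0.11). SERTAD4 lay nearest to RWDD1 (0.07), SERTAD4-AS1 (0.09) and the scavenger receptor gene SCARA3 (0.12). MXRA5 lay nearest to the long non-coding RNA gene AATBC (0.06), PXYLP1 (0.10) and KRT13 (0.11). The siKDM1A array with the lowest value was c for RWDD1, SERTAD4, SERTAD4-AS1 and SCARA3, b for MXRA5, PXYLP1, AATBC and KRT13, and a for RNF138, so genes that lay near each other did not always share it. PXYLP1 lay nearest to KRT13 (0.06), MXRA5 (0.10) and AATBC (0.10), and RCSD1 to PXYLP1 (0.11), KRT13 (0.14) and the interferon-induced gene IFITM1 (0.14). RCSD1 was thus the least closely matched of the 5. Between the 5 genes the distances ran from 0.07 for RWDD1 and SERTAD4 to 0.22 for RWDD1 and RCSD1.

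Next to the 5 genes on the chromosomes, SERTAD4-AS1 was the neighbour with the largest fall. It is a long non-coding RNA gene on the opposite strand to SERTAD4 and overlaps it, with start sites 1089 bases apart in RefSeq. Its probe set 230121_at read 7.55, 7.51 and 7.27 in the siKDM1A arrays, against 8.69, 8.68 and 8.64 in the mock arrays. The means were 7.44 ± 0.15 in siKDM1A cells and 8.67 ± 0.03 in mock cells (SD, n = 3 each), a difference of -1.23 (2.34-fold lower, limma adjusted p = 0.00023). The groups did not overlap, and in each other limma fit the call held, with adjusted p from 2.6e-05 to 0.0024 and differences from -1.28 to -1.14. The sources used here do not give the strand that 230121_at and the SERTAD4 probe sets read, so whether they measured 1 RNA or 2 was not tested. If they measured 1, the p-values of SERTAD4-AS1 inherit the choice of SERTAD4 for its fall. SERTAD4BP, a pseudogene of SERTAD4 on another chromosome, was read by 2 probe sets with mean levels under 3 in both groups. They differed by 0.13 and 0.10, and limma's adjusted p was 0.46 and 0.58.

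Of the 2 nearest measured genes on each side of the 5 genes, 20 in all, 2 were lower, 0 were higher and 18 did not pass limma's test, where 5.46% of all genes were lower and 3.45% higher. Their median difference was -0.06, against 0.01 over all genes. Of the 2 lower neighbours, 1 was SERTAD4-AS1, whose probe set may read the RNA of SERTAD4, a gene picked for its fall. The other called neighbour was DCAF6, a substrate receptor of a CUL4 ubiquitin ligase beyond ADCY10 on the RCSD1 side. It read 9.16, 9.31 and 9.16 in the siKDM1A arrays, against 9.63, 9.70 and 9.70 in the mock arrays, a difference of -0.46 (limma adjusted p = 0.014). The fall of DCAF6 did not pass without mock replicate b or c, nor with the mean over its probe sets (-0.17). That mean includes a probe set that differed by -0.12 and a dim one, with a mock mean of 1.86, that differed by 0.07. CREG1, the nearest measured gene on the other side of RCSD1 (76.5 kb away), differed by -0.30 (limma adjusted p = 0.081). SLC25A36, 251 kb from PXYLP1, differed by -0.46 (limma adjusted p = 0.080). A second, nearly as bright probe set of SLC25A36 differed by -0.51 with no overlap and passed (limma adjusted p = 0.0094), and with the most changed probe set or the mean over probe sets of each gene 3 neighbours were lower. CALHM4 and RSPH4A, the nearest measured genes to RWDD1 (10.4 and 18.8 kb away), differed by 0.01 and -0.13. ARSF and PRKX, the nearest measured genes to MXRA5 (196 and 258 kb away), differed by 0.06 and -0.35. Outside the SERTAD4 locus the largest difference among these neighbours was -0.46 on the brightest probe sets. On other probe sets LOC389906, 471 kb from MXRA5, differed by up to -0.60 (limma adjusted p = 0.053).

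**Figure D3:**
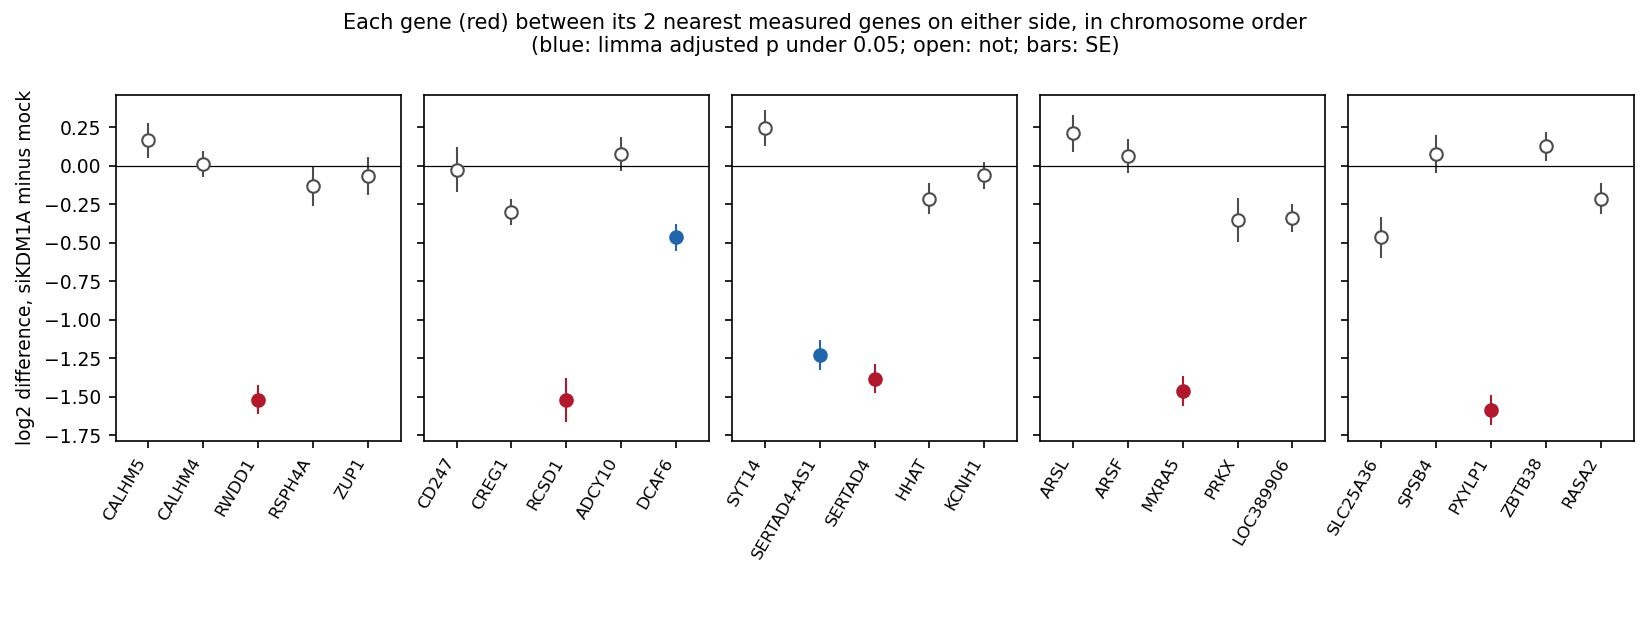
Log2 difference, siKDM1A minus mock (vertical axis), of the 5 genes (red) and of the 2 nearest measured genes on each side in chromosome order, with standard errors as bars. Filled blue points, SERTAD4-AS1 and DCAF6, passed limma's test and open points did not.

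Genes of the same families and pathways were taken from 6 lists. Of 85 genes 83 were measured on a probe set of their own, of which 2 were higher, 5 lower and 76 did not pass, with a median difference of 0.06 against 0.01 over all genes. Over all genes 3.45% were higher and 5.46% lower, so the lists are not set apart by their calls. The count of lower genes was 0 without mock replicate c, 1 without mock replicate a, 2 without mock replicate b or siKDM1A replicate c, and 3 without siKDM1A replicate a or b.

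Of the SERTA family and its E2F partners, none of 8 passed the test. E2F1, the only E2F gene of the list, differed by -0.11, and the list does not cover the other E2F genes. E2F8, named above among the genes past 2.5-fold, was not in it. SERTAD1, SERTAD2 and SERTAD3, which act on E2F-dependent transcription, differed by 0.19, 0.08 and -0.02, and CDCA4 by -0.02. SERTAD4, picked for its fall, had -1.38 on its brightest probe set.

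Of the RWD domain and DRG genes, 2 of 12 were lower, 0 were higher and 10 did not pass. ZC3H15, also called DFRP1, the partner of DRG1, read 9.09, 9.17 and 8.92 in the siKDM1A arrays, against 9.48, 9.59 and 9.55 in the mock arrays, a difference of -0.48 (limma adjusted p = 0.018). RWDD3, which promotes SUMO conjugation, read 8.15, 8.26 and 7.88 in the siKDM1A arrays, against 8.52, 8.56 and 8.57 in the mock arrays, a difference of -0.45 (limma adjusted p = 0.040). Both falls were smaller than that of RWDD1, a gene picked for its fall. ZC3H15 did not pass without mock replicate b or c or with the mean over its probe sets (-0.26). That mean includes a probe set that differed by -0.46 with overlap and a dim one, with a mock mean of 2.14, that differed by 0.16. RWDD3 did not pass without any single mock array or without siKDM1A replicate a or c. DRG2, the GTPase that RWDD1 binds, and DRG1 differed by -0.04 and -0.02, and RWDD2B and RWDD4 by 0.21 and -0.04.

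Of the actin capping protein genes, their regulators and the stress kinases, 1 of 19 measured was higher, 2 were lower and 16 did not pass. The subunits of capping protein that RCSD1 binds, CAPZA1, CAPZA2 and CAPZB, differed by 0.04, 0.12 and 0.03, and the kinase MAPKAPK2 by -0.07. SH3KBP1, an adaptor that binds capping protein and takes part in receptor endocytosis, read 9.72, 9.69 and 9.64 in the siKDM1A arrays, against 9.03, 8.98 and 9.06 in the mock arrays. Its difference was 0.66 (limma adjusted p = 0.0022), opposite in sign to RCSD1, and its other probe sets differed by 0.66 and 0.57. WASHC2C, a subunit of the WASH complex, differed by -0.42 (limma adjusted p = 0.020), on a probe set that can also read related transcripts. The p38 family kinase MAPK12 differed by -0.35 (limma adjusted p = 0.0498). Of the other measured p38 kinases, MAPK11 had the largest fall of the list, -0.47 with no overlap, but did not pass (limma adjusted p = 0.086). MAPK13 differed by 0.10 and did not pass. The other MAPK12 probe sets differed by -0.04 and 0.03, and with the mean over its probe sets the difference was -0.12 and did not pass (limma adjusted p = 0.44). The call of MAPK12 was lost without any single array, and that of WASHC2C without siKDM1A replicate a or mock replicate a or c.

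Of the genes that build the glycosaminoglycan linker and its chains, none of 20 passed, with differences from -0.26 to 0.30. XYLT1 and XYLT2, which add the xylose, differed by -0.24 and -0.10, and FAM20B, the kinase whose phosphate PXYLP1 removes, by 0.18. None of 7 histidine acid phosphatases, the enzyme family of PXYLP1, passed, ACP3 having the largest difference at 0.38. The PXYLP1 difference of -1.59 lay outside the range of both lists, as a gene picked for its fall would.

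Of 17 matrix genes related to MXRA5, 1 was higher, 1 lower and 15 did not pass. POSTN, which encodes the matrix protein periostin, read 7.69, 7.53 and 7.48 in the siKDM1A arrays, against 6.67, 6.69 and 6.88 in the mock arrays, a difference of 0.82 (limma adjusted p = 0.0020). BGN, which encodes the leucine-rich proteoglycan biglycan, read 7.41, 6.90 and 7.17 in the siKDM1A arrays, against 7.91, 7.65 and 7.81 in the mock arrays, a difference of -0.63 (limma adjusted p = 0.027). POSTN and BGN thus moved in opposite directions, and the other POSTN probe sets differed by 0.76, 0.12 and -0.14. The BGN probe set can also read related transcripts, its other probe sets differed by -0.52 and -0.07, and the call was lost without siKDM1A replicate b or c or mock replicate a or c. MXRA7 and MXRA8, which carry the same matrix-remodelling-associated name, differed by -0.10 and 0.12.

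**Figure D4:**
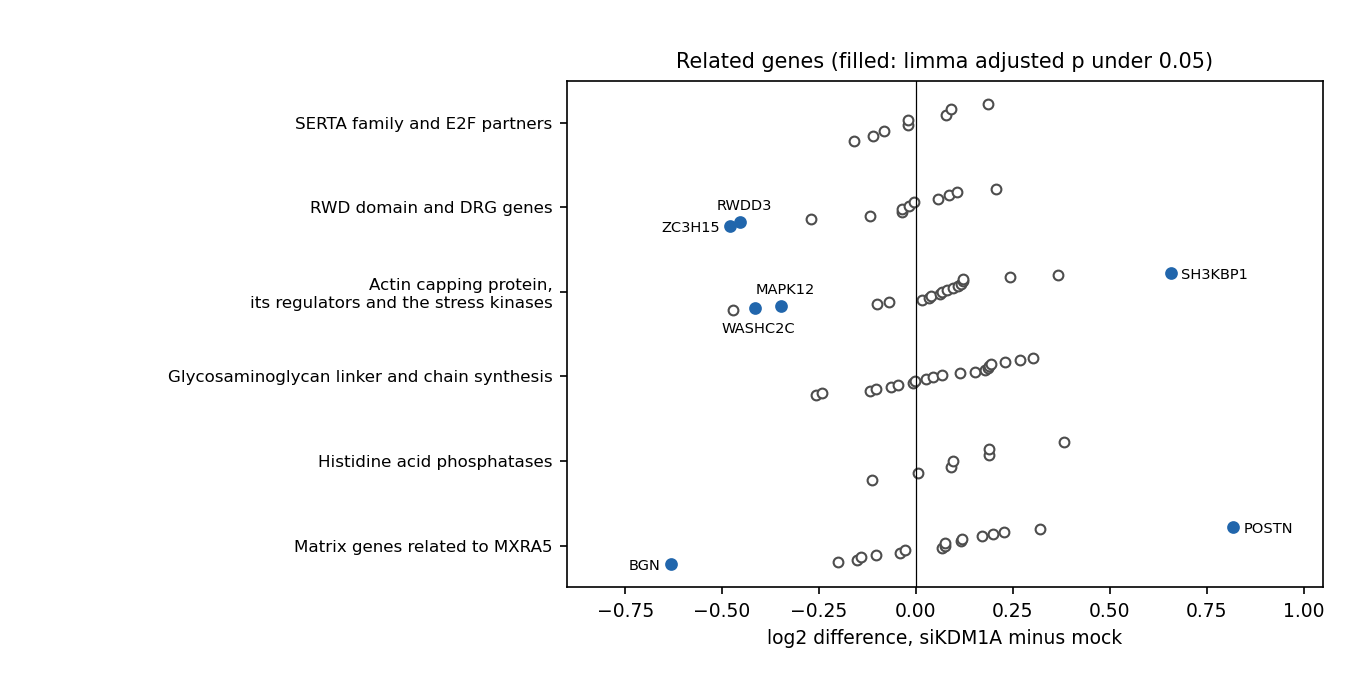
Log2 difference, siKDM1A minus mock (horizontal axis), of 83 measured genes in 6 lists of relatives and pathway partners of the 5 genes, which are left out of the lists. Filled points passed limma's test, with SH3KBP1 and POSTN to the right of 0 and ZC3H15, RWDD3, WASHC2C, MAPK12 and BGN to the left.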

How the data were processed

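The authors ran RMA in Partek, versions not given in the sources used here, on the array scans. The log2 values they deposited cover 54675 probe sets of 6 arrays. RMA removes most of a shift common to all genes, and the scans were not used here, so background correction was not varied and no detection call was made. After 62 controls were left out, limma 3.58.1 (lmFit, eBayes) under R 4.3.3 compared siKDM1A with mock on 54613 probe sets, two-sided, with Benjamini-Hochberg adjustment and a threshold of 0.05. The platform annotation named 1 gene for 41091 probe sets, and 41037 of them matched RefSeq by Entrez ID. A gene was represented by its brightest probe set. The 3 arrays per group limit precision. Members and gene lists were chosen with earlier results of these data known. Named were the 5 genes, KDM1A, KDM5A, up to 4 called genes and the family members in each list, called neighbours, the 3 most alike genes and those around 2.5-fold. Further values named, of list members and neighbours that did not pass, were chosen after they were seen. The limma and one-way ANOVA fits were tested on simulated data. Alternatives were leaving out each array, the brighter probe sets alone, cyclic loess, median centring, a block of replicate letters, a robust prior with an intensity trend, the one-way ANOVA of the methods and other probe set rules.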

Additional observations from a re-analysis of the deposited data

How the results depend on the processing

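No result changed direction. The counts of lower and higher probe sets were 2037 and 1193, against 401 and 275 by one-way ANOVA, and 694 to 1563 and 609 to 1103 with 1 array left out. The 5 lower genes of the lists were 2 under cyclic loess, 1 by ANOVA, 3 without probe sets of the _x_at class and 0 to 3 with 1 array left out, and the 2 higher ones were 4 with the mean of the probe sets of a gene. The 2 lower neighbours were 4 with dim probe sets left out, 4 with an intensity trend and robust prior, 1 by ANOVA and 1 to 2 with 1 array left out. The mean over probe sets gave -1.32 for RWDD1, -0.88 for RCSD1 and -0.85 for PXYLP1, and the most changed probe set of SERTAD4 gave -1.53. Of the 9 called list genes and neighbours, SERTAD4-AS1 and SH3KBP1 passed under every alternative run, and POSTN under all but ANOVA. ANOVA takes each spread from the probe set's own arrays, and fits with 1 array left out have fewer samples; the cause of the other changes was not tested.

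With the replicate letter as a block, 3 list genes were lower, 1639 probe sets were lower and 1080 higher. The deviations of same-letter arrays correlated at 0.11, 0.23 and -0.14. The siKDM1A arrays a and b correlated best with the mock array of their own letter, and c with mock array a (0.18). With 3 arrays per group these values cannot decide whether the letters pair the samples. The block changed the calls of RWDD3 and MAPK12 only.

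The 3 arrays per group limit every comparison, and the mock mean of the second PXYLP1 probe set lay below the lower quartile of all probe sets.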
